A study of Mus musculus with 50 samples.

Results

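Ptges3, also called p23, Tebp or telomerase binding protein p23, is a small acidic protein that binds the ATP-bound form of the chaperone Hsp90. It is the co-chaperone that holds the glucocorticoid receptor and other steroid receptors in the state that can bind hormone, and it is also known as the cytosolic prostaglandin E synthase. In the hypothalamus the glucocorticoid receptor takes part in the negative feedback by which corticosterone limits its own release after stress. Clones of this gene were found by their full name among all clones that are no control spots, and 4 of the 22824 clones carried it, each with the name telomerase binding protein, p23. They were printed at spots 5449, 9600, 11138 and 22079, in 4 different printing blocks. RefSeq (GRCm38.p6) lists Ptges3 as gene 56351, beside a pseudogene, Ptges3-ps, and a related gene, Ptges3l. Which of these transcripts a clone reports was not known, so the assignment of single clones to Ptges3 is uncertain.

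RNA of the hypothalamic paraventricular nucleus (PVN), a nucleus that governs the release of stress hormones, was compared on 50 two-colour cDNA arrays. The groups were DBA/2J mice 4 h and 8 h after forced swimming against non-stressed DBA/2J mice, C57BL/6J mice 4 h and 8 h after forced swimming against non-stressed C57BL/6J mice, and non-stressed DBA/2J against non-stressed C57BL/6J mice. All animals were single-housed males aged 3 to 5 months, the swim lasted 5 min, and each of the 6 conditions was 1 pool of RNA from 6 animals, amplified in 2 rounds. Each comparison had 10 arrays, 5 with the first-named pool in Cy5 and 5 with it in Cy3. All 10 arrays of a comparison hybridised RNA of the same pair of pools, so every standard error and p-value below sets 1 pool against another and says nothing of how much single animals vary. Fewer cells of a type and less RNA per cell cannot be told apart in such tissue samples.

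Across the array, 5.31% to 57.1% of clones lay above the 95th percentile of the empty spots in both channels, and the lowest shares, 5.31% to 8.07%, belonged to the DBA/2J 8 h arrays, whose empty spots were brighter. The Ptges3 clones at spots 5449, 11138 and 22079, lay above that level in both channels on 50 of 50 arrays. The clone at spot 9600 did so on 1 array and lay below it in both channels on 49, so its ratios are mostly those of background. Of the neuropeptide genes of the PVN, the Crh and Oxt clones were above the empty spots on 0 arrays. The Avp clone was above them on 11 and the Trh clone on 17, so the tissue could not be checked well by these genes. A further clone, named only p23, was near the empty spots as well, and RefSeq gives that name to both Ptges3 and Tmed10, so it was not counted among the 4.

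By the labelled dyes, 2 Ptges3 clones were lower in DBA/2J mice and higher in C57BL/6J mice at 8 h after forced swimming than in the non-stressed mice of the same strain. The comparison of DBA/2J mice at 8 h is the one on which the gene was chosen, and its values are given as a description with no test. Directions follow the dyes given in the labels, and the published fold changes of this study have the opposite sign in every comparison. Among them, the paper lists Tebp, an older symbol of Ptges3, as higher in stressed DBA/2J mice at 8 h. The paper's real-time PCR of unpooled samples found Gnai2 higher at 4 h and App higher at 8 h in stressed DBA/2J mice. Those are the directions of its published fold changes, so the direction of the ratios given here is uncertain. If the labelled dyes were exchanged, all directions in this text would turn together. Glo1 and Alad, genes with an extra copy in DBA/2J mice, could have checked the direction, but Glo1 had no clone by name, and the single Alad clone was near the empty spots and gave -0.30 between the strains (limma adjusted p = 0.43), which does not settle it.

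On the 10 arrays of DBA/2J mice at 8 h, the clone at spot 5449 had scanned intensities of 6369 to 14393 (median 8299) in the stressed pool, against 12152 to 22071 (median 17527) in the non-stressed pool. The stressed pool was the dimmer one on all 10 arrays. Its log2 ratio of stressed to non-stressed lay between -1.14 and -0.63 (median -0.89), with a mean of -0.88 ± 0.18 (SD, n = 10 arrays), that is 1.84-fold lower. It was the 5th lowest of 22824 clones. The ratio was below 0 in both dye orientations, with means of -1.02 ± 0.10 where the stressed pool was in Cy5 and -0.74 ± 0.12 where it was in Cy3 (SD, n = 5 each), and these orientations overlapped.

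The clone at spot 11138 had intensities of 4969 to 10986 (median 7515) in the stressed DBA/2J pool, against 6938 to 15174 (median 12613) in the non-stressed pool. The stressed pool was brighter on 1 of the 10 arrays before normalization. After it, the log2 ratio was below 0 on all 10, from -0.92 to -0.46 (median -0.69), with a mean of -0.70 ± 0.14 (SD, n = 10), 1.62-fold lower. On the single scan day that held both dye orientations, spot 5449 averaged -1.03 (Cy5, n = 2) and -0.75 (Cy3, n = 2), and spot 11138 averaged -0.77 and -0.54 (n = 2 each). Both clones were among the 18 called lower in this comparison, which are 0.0789% of all clones, while 0.158% were called in either direction. A clone was called where its log2 ratio was at least 0.5 in size (1.414-fold) and its adjusted p was under 0.05. Spot 5449 kept this call without each array in turn, and spot 11138 kept it in 0 of 10 such fits. Nothing is read from these calls, because the gene was chosen on them.

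The same clones were higher in the stressed pool of C57BL/6J mice at 8 h. For spot 5449 the intensities were 4202 to 12230 (median 7980) in the stressed pool, against 1428 to 5438 (median 3006) in the non-stressed pool, and the stressed pool was brighter on 10 of 10 arrays. The log2 ratio lay between 1.25 and 1.90 (median 1.63), with a mean of 1.60 ± 0.20 (SD, n = 10), or 3.04-fold. This was the highest ratio of all 22824 clones (SE 0.11, limma adjusted p = 8.55e-05). The members were chosen with earlier results of these data known, so the p-values of this comparison may not be independent of that choice. The ratio was 1.52 ± 0.19 with the stressed pool in Cy5 and 1.69 ± 0.18 with it in Cy3 (SD, n = 5 each). Of all clones, 0.0832% were called in either direction here, 18 higher (0.0789%) and 1 lower.

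For spot 11138 the intensities were 2916 to 7335 (median 5609) in the stressed C57BL/6J pool, against 1844 to 4475 (median 3704) in the non-stressed pool, with the stressed pool brighter on 10 of 10 arrays. Its log2 ratio lay between 0.34 and 1.08 (median 0.87) and averaged 0.78 ± 0.25 (SD, n = 10), 1.72-fold, with a limma adjusted p of 0.0385 (SE 0.12). The call of this Ptges3 clone was weak. Leaving out any array other than replicate 5 raised its adjusted p above 0.05, with values up to 0.122, whereas spot 5449 kept its call without each array in turn. Median centring in place of loess (adjusted p = 0.052) and no background subtraction (adjusted p = 0.0607) also ended the call of spot 11138. On the scan day that held both orientations, spot 5449 gave 1.74 (Cy5, n = 1) and 1.69 (Cy3, n = 5) and spot 11138 gave 0.34 (Cy5, n = 1) and 0.75 (Cy3, n = 5).

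**Figure D1:**
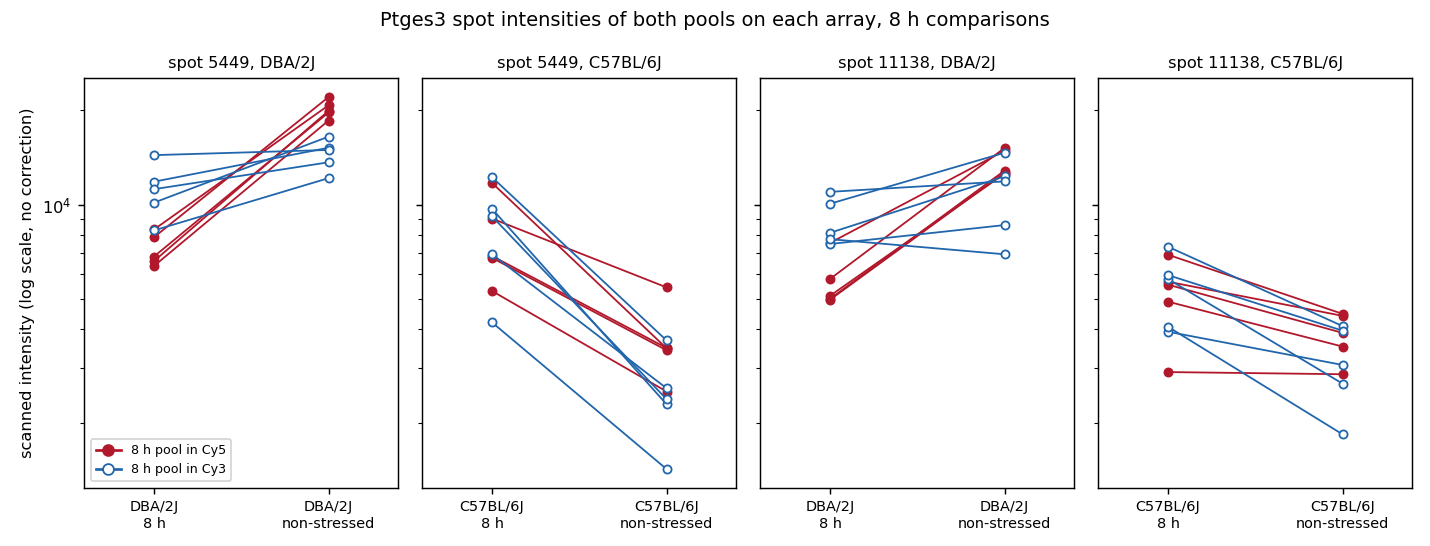
Scanned intensity (log axis, no correction) of the Ptges3 clones at spots 5449 and 11138 in the 8 h pool (left of each panel) and the non-stressed pool of the same strain (right), joined for each of 10 arrays and coloured by the dye of the 8 h pool. Lines climb to the right in DBA/2J mice, except on 1 array for spot 11138, and fall to the right on all arrays in C57BL/6J mice.

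The other 2 clones did not follow. Spot 22079, as clearly above the empty spots as the first pair, had intensities of 2970 to 10853 (median 5894) in the stressed and 2942 to 13747 (median 5254) in the non-stressed pool of DBA/2J mice at 8 h. Its log2 ratio there averaged 0.13 ± 0.12 (SD, n = 10). In C57BL/6J mice at 8 h it averaged 0.00 ± 0.31 (SD, n = 10), with an interval of 2 SE from -0.25 to 0.26 that leaves out the ratios of both called clones (limma adjusted p = 0.994). Spot 9600 averaged -0.20 ± 0.54 and 0.00 ± 1.30 in the 2 strains at 8 h (SD, n = 10 each), with arrays between -1.28 and 1.89 in C57BL/6J mice, and was not called. The ambiguous clone named p23 gave -0.11 in DBA/2J and 0.21 in C57BL/6J mice at 8 h and was not called in any of the 5 comparisons.

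**Figure D2:**
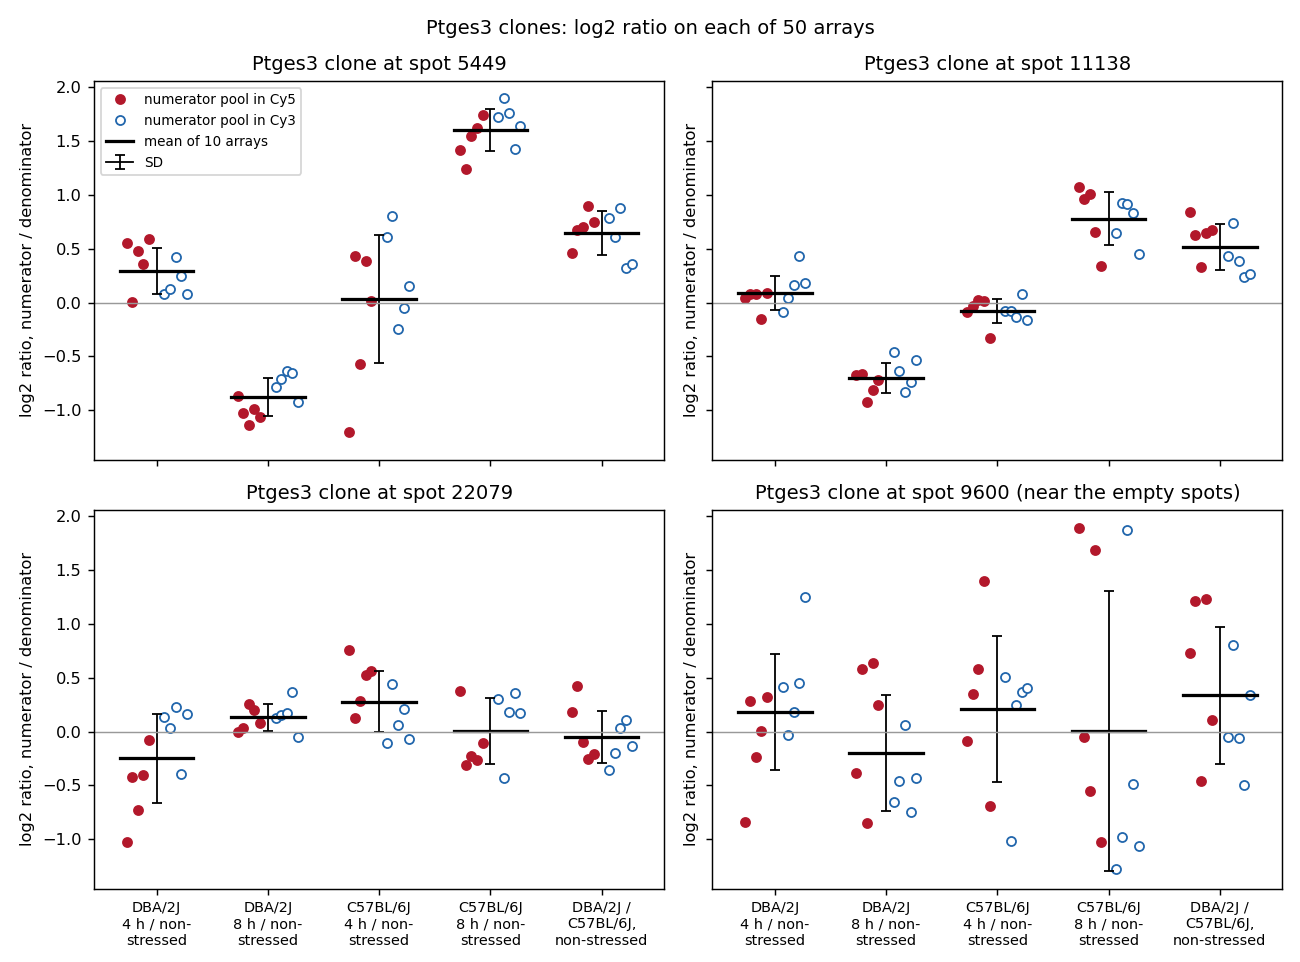
Log2 ratio of each of the 4 Ptges3 clones on all 50 arrays, by comparison (DBA/2J 4 h and 8 h, C57BL/6J 4 h and 8 h, each against non-stressed, and DBA/2J against C57BL/6J non-stressed), with filled points for the first-named pool in Cy5, open points for Cy3, a bar at the mean and the SD of 10 arrays. Spots 5449 and 11138 lie wholly below 0 in DBA/2J mice at 8 h and wholly above 0 in C57BL/6J mice at 8 h, while spot 22079 lies around 0 and spot 9600, near the empty spots, scatters widely.

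At 4 h after the swim no Ptges3 clone was called by limma in either strain and 1 of the 4 had an unadjusted p under 0.05 in each (10.7% of all clones in DBA/2J and 12.3% in C57BL/6J mice), while 0.153% of all clones were called in DBA/2J mice and 0.289% in C57BL/6J mice. In DBA/2J mice spot 5449 had a log2 ratio of 0.29 ± 0.22 (SD, n = 10, limma adjusted p = 0.391) and was above 0 on 10 of 10 arrays, from 0.00 to 0.59. Spot 11138 had 0.09 ± 0.16 (SD, n = 10, limma adjusted p = 0.844), with arrays on both sides of 0, and -0.0051 with median centring in place of loess. In C57BL/6J mice the means were 0.03 ± 0.60 for spot 5449 and -0.08 ± 0.12 for spot 11138 (SD, n = 10 each; limma adjusted p = 0.964 and 0.778). The arrays of spot 5449 ranged there from -1.20 to 0.80, the widest spread of this clone in any comparison, so that its level at 4 h was measured less well than at 8 h. Spot 22079 gave -0.25 ± 0.41 in DBA/2J and 0.28 ± 0.29 in C57BL/6J mice (SD, n = 10 each; limma adjusted p = 0.548 and 0.269).

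The responses at 8 h and 4 h were then set against each other over the 20 arrays of each pair of comparisons. Both comparisons of a strain used the same non-stressed pool. The 8 h response of C57BL/6J mice exceeded their 4 h response by 1.57 on the log2 scale for spot 5449 (SE 0.20, limma adjusted p = 0.00053) and by 0.86 for spot 11138 (SE 0.13, limma adjusted p = 0.00324). Both calls were kept without each of the 20 arrays in turn. Their p-values may likewise not be independent of how the members were chosen. In this difference 0.495% of all clones were called, 87 of them higher (0.381%). For spot 22079 the difference was -0.27 (SE 0.15, limma adjusted p = 0.541). In DBA/2J mice the 8 h response was lower than the 4 h response by -1.17 for spot 5449 and -0.78 for spot 11138, beside 1% of all clones called in that difference. This is a description, because it holds the arrays on which the gene was chosen.

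Between the strains, the 8 h response of DBA/2J mice differed from that of C57BL/6J mice by -2.48 on the log2 scale for spot 5449, the lowest value of all 22824 clones, and by -1.48 for spot 11138, the 7th lowest. These differences rest on the same chosen arrays and are given without a test, beside 0.6% of all clones called. For spot 22079 the difference was 0.13. At 4 h the strain differences were 0.26 for spot 5449 (SE 0.20, limma adjusted p = 0.642), 0.17 for spot 11138 (SE 0.12, adjusted p = 0.621) and -0.53 for spot 22079 (SE 0.15, adjusted p = 0.0787), so none was called, while 2.34% of all clones were. The difference of spot 22079 was called under 4 of 14 alternatives (adjusted p down to 0.00602) and was -0.98 on the Cy5 arrays and -0.07 on the Cy3 arrays.

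Without stress, the same 2 clones were higher in DBA/2J than in C57BL/6J mice. The non-stressed DBA/2J pool was also part of the comparison on which the gene was chosen. These ratios, and the DBA/2J ratios at 4 h, are thus not independent of that choice. Spot 5449 had intensities of 3084 to 16794 (median 6020) in DBA/2J mice, against 1583 to 6023 (median 2993) in C57BL/6J mice, and the DBA/2J pool was brighter on 10 of 10 arrays. Its log2 ratio lay between 0.32 and 0.89 (median 0.69) and averaged 0.64 ± 0.20 (SD, n = 10), 1.56-fold (SE 0.13, limma adjusted p = 0.0115). Spot 11138 had intensities of 1488 to 12076 (median 5443) in DBA/2J mice, against 1294 to 5513 (median 3175) in C57BL/6J mice, and log2 ratios of 0.24 to 0.84 (median 0.53). Its mean was 0.52 ± 0.21 (SD, n = 10), 1.43-fold (SE 0.13, limma adjusted p = 0.0378), just past the log2 ratio of 0.5 that a call needs. In this comparison 3.62% of all clones were called, 366 of them higher (1.6%), so a call was more common than in any comparison with stressed mice.

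Leaving out any array other than replicate 3 took the adjusted p of the Ptges3 clone at spot 11138 above 0.05 in this comparison, up to 0.0954, and spot 5449 kept its call throughout. With scan day as a fixed block the adjusted p was 0.0628 for spot 5449 and 0.16 for spot 11138, so neither was called. On the scan day with both orientations spot 5449 gave 0.70 in each (n = 5 and 2) and spot 11138 gave 0.62 (Cy5, n = 5) and 0.59 (Cy3, n = 2). On the other day, which held only Cy3 arrays, they gave 0.52 and 0.30 (n = 3 each). Spot 22079 was at -0.05 ± 0.24 (SD, n = 10, limma adjusted p = 0.912), with 4 of 10 arrays above 0. Spot 9600 was at 0.34 ± 0.63 (SD, n = 10) and not called.

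One fit over all 50 arrays put the 6 pools on a common scale, as log2 levels relative to the non-stressed C57BL/6J pool. For spot 5449 the order was C57BL/6J 8 h at 1.60 (SE 0.11), DBA/2J 4 h at 0.94 (SE 0.15), non-stressed DBA/2J at 0.64 (SE 0.11), C57BL/6J 4 h at 0.03 (SE 0.11), non-stressed C57BL/6J at 0 and DBA/2J 8 h at -0.23 (SE 0.15). Each of the first 3 steps down this order was larger than 2 SE, and the step between the C57BL/6J pools at 4 h and without stress was not. For spot 11138 the order was C57BL/6J 8 h at 0.78 (SE 0.08), DBA/2J 4 h at 0.61 (SE 0.11), non-stressed DBA/2J at 0.52 (SE 0.08), non-stressed C57BL/6J at 0, C57BL/6J 4 h at -0.08 (SE 0.08) and DBA/2J 8 h at -0.18 (SE 0.11). Of the steps above the C57BL/6J 4 h pool, that between the 2 non-stressed pools, 0.52, was larger than 2 SE. In both clones the DBA/2J level was above the C57BL/6J level in non-stressed mice and below it at 8 h. The DBA/2J level at 8 h comes from the arrays on which the gene was chosen, and the step to it was not judged. The non-stressed DBA/2J pool was on those arrays too. With median centring the step of spot 5449 between DBA/2J 4 h and non-stressed DBA/2J, 0.21, was no longer larger than 2 SE, and for spot 11138 these 2 pools changed places, at 0.48 and 0.49.

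**Figure D3:**
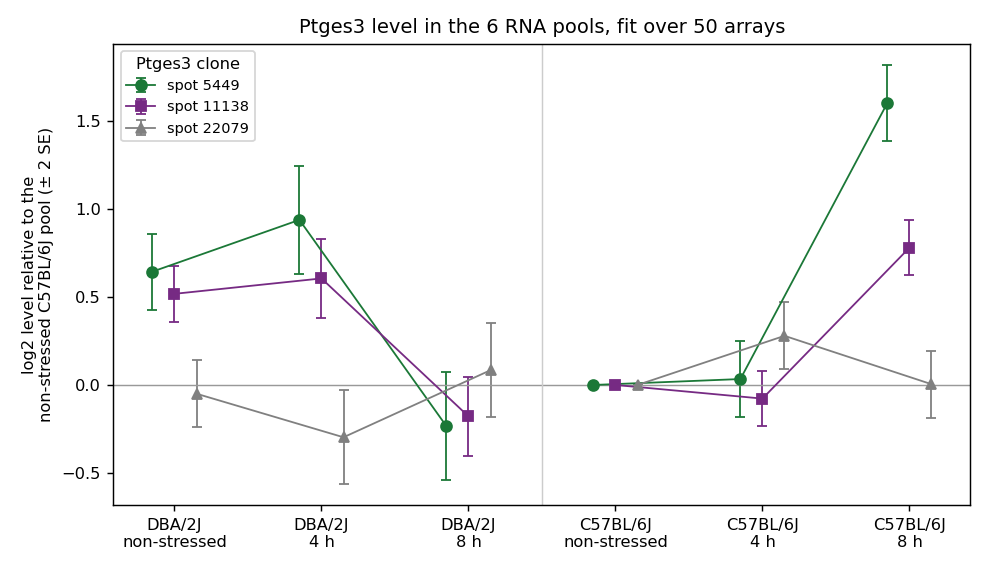
Log2 level of the Ptges3 clones at spots 5449, 11138 and 22079 in the 6 pools, relative to non-stressed C57BL/6J mice, from one fit over 50 arrays, with bars of 2 SE and the times non-stressed, 4 h and 8 h in order within each strain. Spots 5449 and 11138 fall at 8 h in DBA/2J mice and climb at 8 h in C57BL/6J mice, and spot 22079 stays between -0.30 and 0.28.

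Some lists of tissue markers had the signs of the 2 called Ptges3 clones at 8 h, and others did not. The thalamus, which lies near the PVN, was represented by 5 clones of Tcf7l2 and Prkcd, of which 1, a Prkcd clone, was above the empty spots on all arrays. The Tcf7l2 clone at spot 3616, above them on 49 arrays, had a log2 ratio of -0.52 in DBA/2J mice at 8 h (limma adjusted p = 0.0472). It had 0.29 in C57BL/6J mice at 8 h (not called) and 0.67 between the non-stressed strains (limma adjusted p = 0.0101). These are the signs of the Ptges3 clones at spots 5449 and 11138. The 5 thalamus clones ranged from -0.52 to 0.22, from -0.18 to 0.29 and from -0.13 to 0.67 in these comparisons, so the values of spot 3616 lay at one end of the list each time. The medians of the 5 clones were -0.29, 0.11 and 0.35, with summed intensities of 31531 to 59640 in stressed and 32249 to 54219 in non-stressed DBA/2J mice at 8 h. Between the non-stressed strains, 4 of 21 astrocyte, 7 of 25 oligodendrocyte and 2 of 4 red blood cell clones were also called higher in DBA/2J mice, beside 1.6% of all clones, and 2 oligodendrocyte clones were called lower. Of the 5 endothelial clones, 1 was above the empty spots on 25 or more arrays. Their medians were -0.31 in DBA/2J and 0.27 in C57BL/6J mice at 8 h. For the 8 h less the 4 h response of C57BL/6J mice the median was 0.61. None was called, beside 0.158%, 0.0832% and 0.495% of all clones. The summed endothelial intensities were 1675 to 3637 in stressed and 2013 to 3836 in non-stressed DBA/2J mice at 8 h. In C57BL/6J mice at 8 h they were 889 to 2652 in stressed and 711 to 1843 in non-stressed mice. The other lists had medians at 8 h, in DBA/2J and then C57BL/6J mice, of -0.06 and -0.31 for hypothalamic neurons and -0.01 and -0.04 for astrocytes. For oligodendrocytes they were -0.06 and -0.01, and for microglia -0.19 and -0.002. Choroid plexus had 0.23 and -0.04, and red blood cells had 0.26 and 0.15. The part of these tissues in the Ptges3 ratios was not tested.

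No clone in the list of Hsp90 and its other co-chaperones was called by limma in a comparison with stressed mice. Between 0.0832% and 0.289% of all clones were called there, so a list of this size would seldom hold a call. The list had 24 clones of 15 genes, with none named Hsp90aa1, and 5 of the clones were above the empty spots on 25 or more of the 50 arrays. The paper lists Hspca, an older symbol of Hsp90aa1, as lower in C57BL/6J mice at 8 h by its published sign. This could not be checked with the list. At an unadjusted p under 0.05, 5 of the 24 passed in DBA/2J mice at 4 h and 3 at 8 h, and 7 in C57BL/6J mice at 4 h and 2 at 8 h, beside 10.7%, 12%, 12.3% and 9.28% of all clones. The median of the 24 log2 ratio was -0.10 in DBA/2J mice at 4 h and -0.04 at 8 h, and 0.11 in C57BL/6J mice at 4 h and -0.11 at 8 h, against medians of all clones between -0.01 and 0.01. Between the non-stressed strains the median was 0.00, and 1 clone was called, beside 3.62% of all clones. It was Chordc1, an Hsp90-binding protein with zinc-binding domains, at -0.59 (limma adjusted p = 0.0248).

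Hsp90ab1, the constitutive cytosolic Hsp90, had 2 clones, and their value farthest from 0 was -0.53 in DBA/2J mice at 4 h at spot 22985 (limma adjusted p = 0.148). At 8 h that clone was at -0.22 in DBA/2J mice. Fkbp5, the co-chaperone that lowers the hormone affinity of the glucocorticoid receptor and is itself induced by glucocorticoids, had 0.48 in C57BL/6J mice at 4 h, with 10 of 10 arrays above 0 (limma adjusted p = 0.175), and 0.45 in DBA/2J mice at 8 h (adjusted p = 0.181). Fkbp4, an immunophilin of the mature receptor complex, had 3 clones, and Stip1, which links Hsp70 to Hsp90, had 1, none of them called. In the 5 comparisons their values lay within 0.5 on the log2 scale, apart from the Hsp90ab1 value just given. The 8 h response less the 4 h response of C57BL/6J mice was -0.61 for Fkbp5 and -0.51 for the Fkbp4 clone at spot 20716, neither of them called.

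The Hsp70 system, which hands client proteins to Hsp90, had 30 clones of 16 genes. In DBA/2J mice at 8 h 1 was called lower, beside 0.0789% of all clones, but it was a clone of Hspa1b, a stress-inducible Hsp70, that was above the empty spots in both channels on 0 of 50 arrays, so its ratio is not given. Bag4, a nucleotide exchange factor of Hsp70, was called lower in C57BL/6J mice at 4 h, at -1.01 (limma adjusted p = 0.0253), beside 0.289% of all clones called there, and was above the empty spots in both channels on 11 of 50 arrays. Its 8 h response exceeded its 4 h response by 0.91 (adjusted p = 0.0408). Between the non-stressed strains 3 of the 30 clones were called higher in DBA/2J mice, beside 1.6% of all clones, of which 2 were of Hspa8, the constitutive Hsp70, at 0.59 and 0.57 (adjusted p = 0.0207 and 0.0212), and 1 was of Hspa4, an Hsp110 relative, at 0.51 (adjusted p = 0.0471). None of the 30 was called by limma in C57BL/6J mice at 8 h, where 0.0832% of all clones were. At an unadjusted p under 0.05, 4 of the 30 passed there, beside 9.28% of all clones.

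Clients and partners of p23 had 19 clones of 13 genes. The glucocorticoid receptor Nr3c1 had 2 clones, and their value farthest from 0 was 0.56 at spot 5652 in DBA/2J mice at 4 h, with 9 of 10 arrays above 0 (limma adjusted p = 0.117). Enzymes and receptors of prostaglandins had 15 clones of 12 genes, and 1 was called between the non-stressed strains, beside 3.62% of all clones. It was Cbr1, a carbonyl reductase that acts on prostaglandins, at -0.53 (limma adjusted p = 0.0307). No clone of either list was called by limma in a comparison with stressed mice, where 0.0832% to 0.289% of all clones were. At an unadjusted p under 0.05, 0 to 4 of the 19 and 0 to 5 of the 15 clones passed in each of these comparisons, beside 9.28% to 12.3% of all clones.

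**Figure D4:**
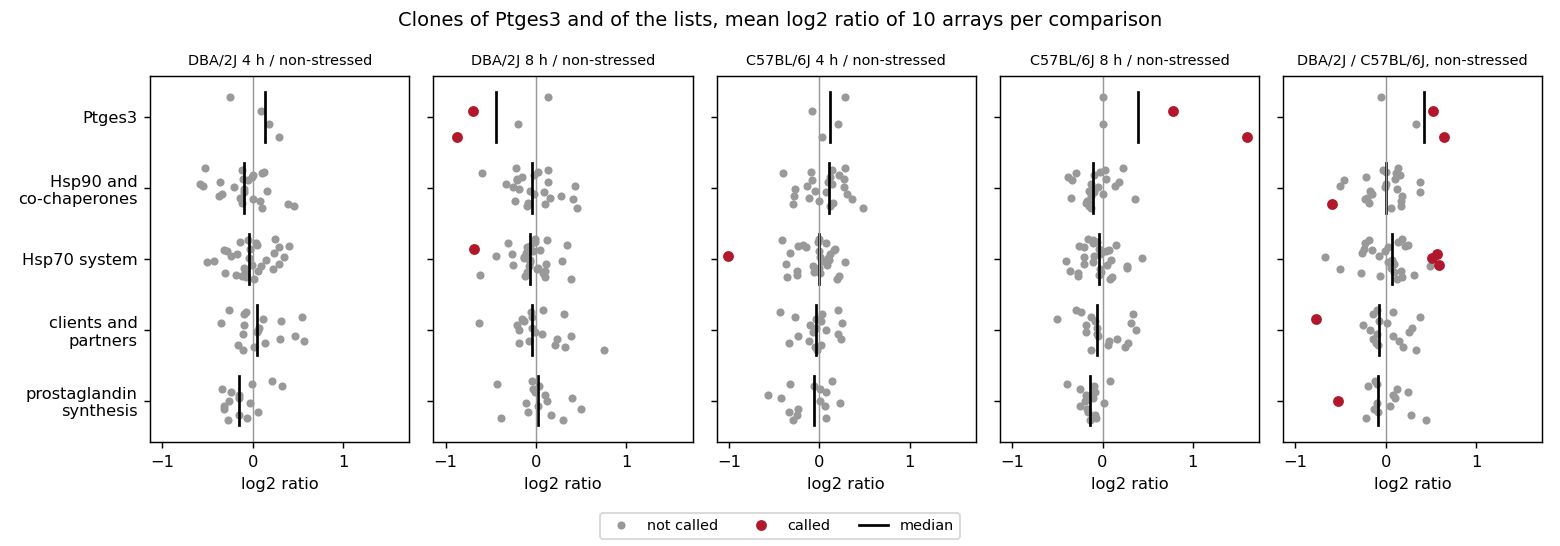
Mean log2 ratio of 10 arrays for each clone of Ptges3 (4 clones), Hsp90 and co-chaperones (24), the Hsp70 system (30), clients and partners (19) and prostaglandin synthesis (15), in each comparison, with called clones in red and a line at the median. The 2 called Ptges3 clones are at the left end in DBA/2J mice at 8 h and at the right end in C57BL/6J mice at 8 h, the other 2 lie between -0.20 and 0.13 there, and the medians of the other lists lie between -0.16 and 0.11.

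The genes whose pattern was most like that of Ptges3 were found with the brightest Ptges3 clone, at spot 11138, by the uncentred correlation of log2 ratios over the 50 arrays after removal of the dye term. The arrays share pools and hybridisation noise, so these values are a description. Over all clones the correlation had a median of 0.00, and its middle 95% lay between -0.35 and 0.38. The other Ptges3 clone that moved, at spot 5449, had 0.88, whereas spot 9600 had 0.27 and spot 22079 had -0.24. The highest among the 8928 clones with a gene name were 2 clones of Adam10, a membrane metalloprotease that cleaves the amyloid precursor protein, at 0.89 and 0.86. They were followed by a synaptosomal-associated protein at 0.83, N-myc downstream regulated 4 at 0.78 and insulin induced gene 1, which restrains sterol synthesis, at 0.77.

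The Adam10 clones had log2 ratios of -0.66 and -0.55 in DBA/2J mice at 8 h, and of 1.21 and 1.23 in C57BL/6J mice at 8 h. Insulin induced gene 1 had -0.51 in DBA/2J and 1.14 in C57BL/6J mice at 8 h, and 0.98 between the non-stressed strains. The lowest correlations were those of glutamic acid decarboxylase 1, the enzyme that makes GABA, at -0.75, the nucleoside diphosphate kinase NM23A at -0.73, glutamine synthase at -0.72, regulator of G-protein signaling 2 at -0.70 and CREBBP/EP300 inhibitory protein 1 at -0.68. Glutamic acid decarboxylase 1 had 0.24 in DBA/2J and -0.51 in C57BL/6J mice at 8 h, the opposite signs to the Ptges3 clone at spot 11138.

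**Figure D5:**
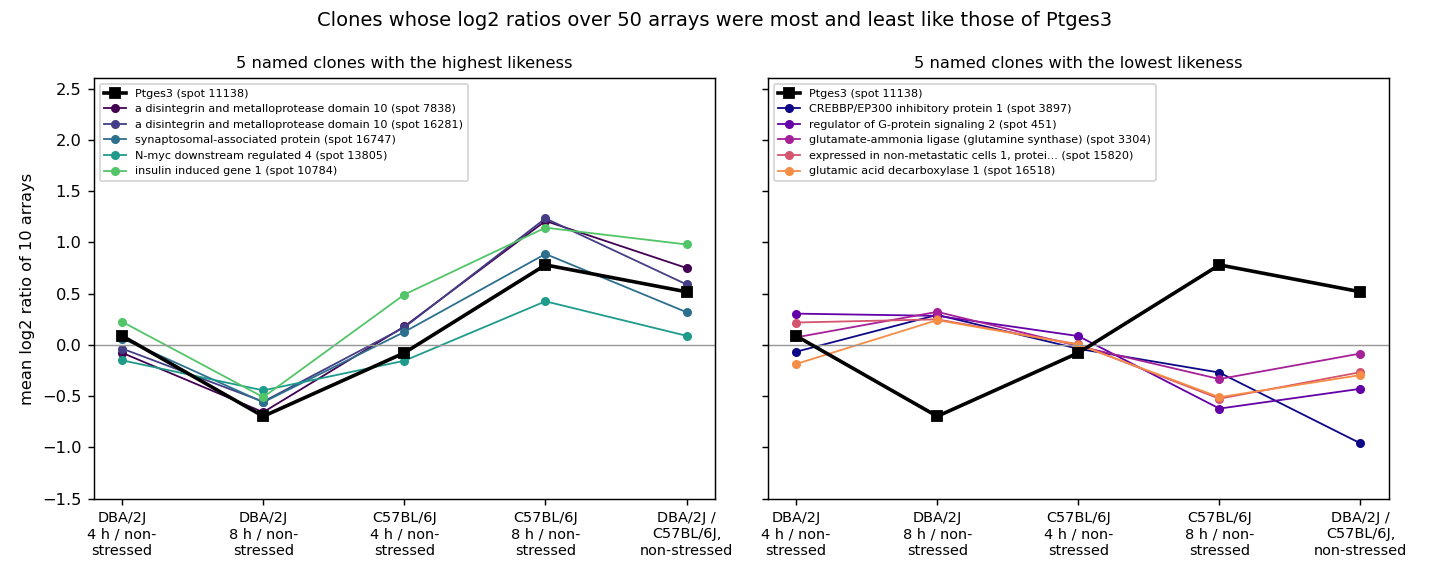
Mean log2 ratio of 10 arrays in each comparison for the Ptges3 clone at spot 11138 (black) and for the 5 named clones with the highest (left) and the 5 with the lowest (right) correlation with it over 50 arrays. The clones on the left lie between -0.66 and -0.44 in DBA/2J mice at 8 h and between 0.43 and 1.23 in C57BL/6J mice at 8 h.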

How the data were processed

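The authors deposited, for each array, the scanned intensity of each spot in both dyes and a table of processed log2 ratios of 19047 spots, whose scale was found from the values. The scan used a QuantArray quantification that the authors did not transform. Here the intensities were background-corrected by normexp (offset 50), normalized by global loess within arrays with the 1368 control spots at weight 0, and turned by the labelled dyes, read for each array from its header because the dye of the first channel differed on 4 arrays. The deposited log2 ratios had the same direction on all 50 arrays (rank correlation 0.76 to 0.98) and were an alternative. Each comparison was fitted with limma 3.58.1 in R 4.3.3 with a dye term, with Benjamini-Hochberg adjustment over 22824 clones. Differences used the 20 arrays of 2 comparisons. The median SE per comparison was 0.158 to 0.186. It measures repeated hybridisation of the same pair of pools and not the spread between animals. The fit was tested on simulated data.

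The members and lists were chosen with earlier results of these data known. Named were every Ptges3 clone, every clone of Hsp90aa1, Hsp90ab1, Nr3c1, Fkbp4, Fkbp5 and Stip1, up to 4 further called clones of a list in a comparison, the 5 clones most and least like the brightest Ptges3 clone, and Glo1 and Alad for direction. Alternatives changed the background correction, normalization, dim-clone filter, dye term, dye orientation, scan day, samples in the fit, source of values, test and arrays. Those for the pool levels, the named list clones and the other 3 Ptges3 clones were added after seeing the data. The result of 1 named gene of the client list is not reported here.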

Additional observations from a re-analysis of the deposited data

Results flagged for a closer look

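The Ptges3 responses to stress drew attention by their differences between strains and times. At 8 h every array of DBA/2J mice was below 0 and every array of C57BL/6J mice was above 0 for the clones at spots 5449 and 11138, with strain differences of -2.48 and -1.48 on the log2 scale that were not tested, because the gene was chosen on the DBA/2J arrays. In DBA/2J mice the 8 h response of spot 5449 was below 0 and its 4 h response above 0 on every array, a difference of -1.17 that was not tested for the same reason. Among C57BL/6J mice the 8 h response exceeded the 4 h response by 1.57 for spot 5449 (limma adjusted p = 0.00053) and by 0.86 for spot 11138 (limma adjusted p = 0.00324). These p-values may not be independent of how the members were chosen. In the 20 groups of 10 arrays given by the 4 clones and 5 comparisons, 0 arrays stood apart from the rest, where chance would set one apart in about 1 group in 20.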

How the results depend on the processing

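The repeated arrays share 2 pools, so none of these settings tests the spread between animals. For the Ptges3 clone at spot 11138 the sign was kept under all alternatives except that its 4 h ratio in DBA/2J mice became -0.0051 with median centring in place of loess. Its ratio in C57BL/6J mice at 8 h was no longer called with no background subtraction (0.78, limma adjusted p = 0.0607), median centring (0.68, 0.052), Cy5 arrays only (0.81, 0.261), Cy3 arrays only (0.75, 0.186) or each orientation averaged (0.78, adjusted p near 1), and its ratio between the non-stressed strains with median centring (0.49, 0.0631), no dye term (0.52, 0.0552), Cy5 only (0.62, 0.233), Cy3 only (0.41, 0.39), scan day as a fixed block (0.46, 0.16) or averaging (0.52, 0.621). The difference of 8 h and 4 h in C57BL/6J mice lost its call with Cy5 only (0.89, 0.303), Cy3 only (0.83, 0.163), averaging (0.86, adjusted p near 1) and the replicate block (0.86, 0.0676). Fewer arrays enter the single-orientation fits, and the averaged fits use all arrays but fewer values. The cause of the lost calls was not tested. Spot 5449 lost the call at 8 h in C57BL/6J mice with Cy5 arrays only, among the alternatives run, and that between the non-stressed strains with Cy5 only, Cy3 only, the fixed scan day and averaging. Its difference of 8 h and 4 h in C57BL/6J mice lost the call with Cy5 only, Cy3 only and averaging.

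Without each array in turn, the ratio of spot 11138 was -0.72 to -0.67 in DBA/2J mice at 8 h (called in 0 of 10), 0.75 to 0.84 in C57BL/6J mice at 8 h (called in 1 of 10), 0.05 to 0.12 in DBA/2J mice at 4 h, -0.10 to -0.05 in C57BL/6J mice at 4 h and 0.48 to 0.56 between the non-stressed strains (called in 1 of 10). Its strain differences were -1.54 to -1.44 at 8 h and 0.13 to 0.19 at 4 h, and its time differences -0.81 to -0.75 in DBA/2J and 0.82 to 0.92 in C57BL/6J mice.

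Replicate numbers did not pair the arrays of different comparisons: same-numbered arrays correlated between -0.02 and 0.02, and at most 1 of 10 correlated best with its own number. With the replicate block the strain differences of spot 11138 stayed at -1.48 (8 h) and 0.17 (4 h) and the time differences at -0.78 (DBA/2J) and 0.86 (C57BL/6J), and the clones called over the array were 30 in place of 137, 127 in place of 535, 0 in place of 229 and 15 in place of 113.

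Counts of calls over the array moved more than the Ptges3 ratios. In DBA/2J mice at 8 h they were 36 in the fit reported, 0 with scan day as a fixed block and 132 with it as a random block. For C57BL/6J mice at 8 h they were 19, against 2 after averaging and 197 with all 50 arrays in one fit. At 4 h they were 35 in DBA/2J and 66 in C57BL/6J mice, against 355 and 125 in that one fit, and between the non-stressed strains they were 826, against 35 on the Cy5 arrays only. Among the chaperones, Chordc1 (median centring), Hspa1b and Hspa4 (no background subtraction) and both Hspa8 clones (print-tip loess, and for 1 of them median centring) lost their calls.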
